A study of Mus musculus with 8 samples.

Results

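Atoh1, Pou4f3, Gfi1, Lhx3, Barhl1 and Ikzf2 encode transcription factors of the hair cell, the sensory cell of the organ of Corti. The 6 genes were read across the genotypes and regions of a mouse cochlea study from every probe set annotated to 1 of these symbols alone. They had 10 probe sets and are 6 of the 18193 genes in the table. Expression was measured on 8 arrays of the organ of Corti at postnatal day 16, with 2 samples in each of 4 groups: conditional knockout (cKO) base, cKO apex, control base and control apex. All mice carried the Atoh1-Cre transgene Tg(Atoh1-cre)1Bfri, which recombines floxed alleles in hair cells, and at least 1 floxed allele of Dicer1 (Dicer1tm1Bdh). The Dicer1 product cuts precursors into mature microRNAs. The cKO mice were Dicer1(flox/flox) and their control littermates Dicer1(flox/wt), so no group was free of the Cre or of a floxed allele. Each sample pooled the apical or the basal piece from both cochleae of 1 mouse, and samples of 1 genotype with the same number were taken to be the same mouse, which gives 4 presumed mice.

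These factors act in sequence during hair cell development. Atoh1 is the basic helix-loop-helix factor that starts the hair cell fate and is turned down as the cells mature. Pou4f3, a POU-homeodomain factor, and Gfi1, a zinc finger repressor, are needed for hair cells to mature and survive, and Gfi1 is known in mouse to depend on Pou4f3. Lhx3, a LIM-homeodomain factor, and Barhl1, a homeodomain factor, are made in hair cells, and Barhl1 is needed for their long-term survival in mouse. Ikzf2 encodes helios, a zinc finger factor that maintains the outer hair cell programme in mouse. The same genes work elsewhere: Gfi1 in blood precursors and Ikzf2 in T cells.

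Promoter sequences are shown for Gfi1, which had the largest difference between base and apex among the factors past the test, and for Barhl1. They were taken from RefSeq (GRCm38.p6) and hold 250 bases before and 50 after an annotated start, given 5' to 3' along the minus strand, on which both genes lie. Capitals mark CANNTG, the E-box letters that factors of the Atoh1 class bind, and ATTAAT, the core letters of POU4-class sites. Each motif reads the same on both strands.
Gfi1, chr5:107725756-107726055: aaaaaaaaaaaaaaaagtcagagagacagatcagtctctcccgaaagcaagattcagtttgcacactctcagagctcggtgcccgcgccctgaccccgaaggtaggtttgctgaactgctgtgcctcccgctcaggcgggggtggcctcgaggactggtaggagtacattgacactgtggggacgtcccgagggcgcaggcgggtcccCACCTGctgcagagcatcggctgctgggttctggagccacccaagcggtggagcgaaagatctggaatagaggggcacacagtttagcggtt
Gfi1, chr5:107724294-107724593: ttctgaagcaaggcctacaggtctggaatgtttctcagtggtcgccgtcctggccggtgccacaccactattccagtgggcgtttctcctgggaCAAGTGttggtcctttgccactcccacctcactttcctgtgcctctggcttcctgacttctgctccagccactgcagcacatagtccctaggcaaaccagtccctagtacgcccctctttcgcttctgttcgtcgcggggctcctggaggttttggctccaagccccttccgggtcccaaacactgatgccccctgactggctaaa
Barhl1, chr2:28916619-28916918: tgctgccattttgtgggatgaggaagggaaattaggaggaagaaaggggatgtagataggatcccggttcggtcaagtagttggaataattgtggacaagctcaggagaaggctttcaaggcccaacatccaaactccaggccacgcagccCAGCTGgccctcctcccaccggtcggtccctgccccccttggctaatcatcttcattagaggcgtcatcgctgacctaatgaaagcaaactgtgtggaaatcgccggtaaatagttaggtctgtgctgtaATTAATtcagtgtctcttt
The E-box letters began at position 209 of the first Gfi1 sequence and at position 95 of the second, counted from 1 at the 5' end of the window. In the Barhl1 sequence they began at position 152, and the POU4-class letters at position 282, after the annotated start. The other Barhl1 entry, not shown, held E-box letters at positions 236 and 255 and no POU4-class letters. Of the 6 genes, 4 had promoter entries, 7 in all, of which 5 held the E-box letters and 1 the POU4-class letters. The E-box letters lie in 72.3% and the POU4-class letters in 4.75% of the 32851 mouse promoter windows of 300 bases, so a match here describes letters and not a binding site.

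Signals are MAS5 intensities on a linear scale with a trimmed mean of 500 on every array, and array medians ran from 67.3 to 100.4. A gene was tested where the mean log2 signal of its brightest probe set reached the 40th percentile of all probe sets, a signal of 38.7. Of the 6 factors, 4 passed (Pou4f3, Gfi1, Lhx3 and Ikzf2), while Atoh1 and Barhl1 lay under it. Tests are limma's, over all 13221 tested genes, with Benjamini-Hochberg adjustment and a threshold of 0.05. Across all genes, the 2 control basal samples were the least alike of any replicate pair (r = 0.928), and the other pairs reached 0.961 to 0.978. Dicer1 had 534 to 679.6 units in cKO samples and 525 to 759 in control samples (its probe set is not placed here against the deleted part). Xist, made in females, was at 5365 and 5968 in the base and apex of control mouse 1 and at 77.7 to 300.5 in the other 6 samples. Control base replicate 1 also stood apart in its summed signal of stria vascularis markers, 21126 against 50923 to 56634 in the other 3 basal samples. Control apex replicate 1 was highest of the apical samples for some of these markers and lowest for others. Dct read 3750 there against 73.2 to 659 in the other apical samples, and Kcnj10 2353 against 2707 to 3779. Control base replicate 2 had the lowest summed signal of spiral ganglion neuron markers, 19825 against 31048 to 59244 in the other 3 basal samples. The arrays read pieces of tissue, in which fewer hair cells and less RNA per hair cell cannot be told apart.

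Gfi1 and Ikzf2 were lower in the base than in the apex over both genotypes, by 4.03-fold and 1.98-fold, and both passed the test. Pou4f3 and Lhx3 also had lower basal than apical signals in each of the 4 presumed mice, as did Barhl1 on the brighter of its probe sets, both of them under the filter, and Atoh1 in 2 of 4. No factor passed the test between cKO and control mice in either region.

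**Figure D1:**
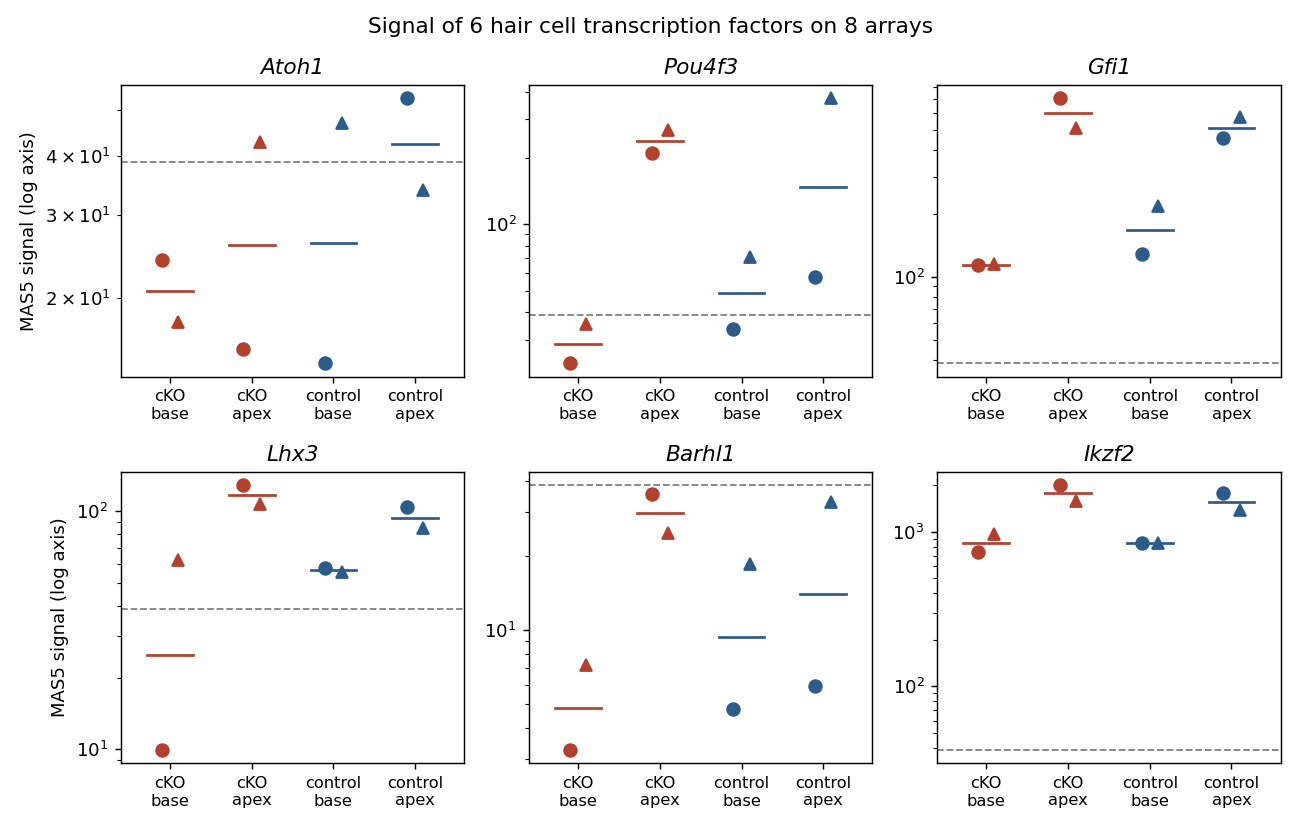
MAS5 signal (log axis, a different range in each panel) of the 6 factors in the 4 groups of 2 samples. Points are samples, a circle for mouse 1 and a triangle for mouse 2 of a genotype; bars are means of log2 signal and the dashed line is the filter signal of 38.7. Gfi1, Lhx3 and Ikzf2 show basal samples below all apical samples, while Atoh1 and Barhl1 lie around or under the filter.

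Atoh1, the factor that starts hair cell fate, had a single probe set with low signals throughout. It read 24.1 and 17.8 in cKO base, 15.6 and 42.8 in cKO apex, 14.5 and 47.0 in control base, and 52.9 and 33.9 in control apex. The groups overlapped in every comparison, and only 3 of the 8 samples reached the filter signal. Between base and apex the sign differed among mice, with base above apex in cKO mouse 1 and control mouse 2 and below it in the other 2 mice. In a fit with no filter, the base minus apex difference over both genotypes was -0.51 ± 0.54 (log2, SE; adjusted p = 0.716, limma). At these signals a difference in Atoh1 was not detectable.

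Pou4f3, the POU-homeodomain survival factor, read 23.4 and 35.3 in cKO base and 212 and 269 in cKO apex, against 33.5 and 70.9 in control base and 57.9 and 373.8 in control apex. Both cKO apical samples and control apex replicate 2 were high, and control apex replicate 1 lay between the control basal samples. Both cKO basal samples and control base replicate 1 were under the filter signal. The basal signal was 9.06-fold and 7.61-fold below the apical one in the cKO mice, and 1.73-fold and 5.27-fold below it in the control mice. Over both genotypes the difference was -2.32 ± 0.58 on the log2 scale, and it missed the threshold (adjusted p = 0.110, limma). With each basal value under the filter raised to it, Pou4f3 was at least 4.16-fold lower in the base (adjusted p = 0.124). With the presumed mouse as a block, its adjusted p was 0.0341 at the same size. Its size depended on the unlike control apical samples. It was -1.65 without control apex replicate 2 (adjusted p = 0.151), -3.0 without control apex replicate 1 (adjusted p = 0.0523) and -2.73 without both samples of control mouse 1 (adjusted p = 0.0034). Within genotypes it was -3.05 ± 0.82 in cKO mice (adjusted p = 0.218) and -1.59 ± 0.82 in control mice (adjusted p = 0.686), the control value being -0.25 without control apex replicate 2.

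Gfi1, the zinc finger repressor, read 113 and 115 in cKO base and 709 and 511.5 in cKO apex, against 128 and 217 in control base and 456 and 577 in control apex. Every basal sample was below every apical sample, and the 2 cKO basal samples were the lowest of the 8. Group means were highest in cKO apex (610.2 ± 139.7, SD, n = 2), then control apex (517 ± 85.5), control base (172 ± 62.3) and cKO base (114 ± 1.04). Neither the apical pair nor the basal pair of groups differed past the threshold. Base minus apex over both genotypes was -2.01 ± 0.22 on the log2 scale, 4.03-fold lower (adjusted p = 0.0170, limma). In this comparison 79 genes were called lower, 0.598% of those tested, and 2 of the 6 factors, Gfi1 and Ikzf2, were among them. The basal signal of Gfi1 was 6.26-fold and 4.45-fold below the apical one in the cKO mice, and 3.55-fold and 2.67-fold below it in the control mice. Within cKO mice alone the difference was -2.40 ± 0.31 (adjusted p = 0.0609) and within control mice -1.62 ± 0.31 (adjusted p = 0.335).

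The Gfi1 call rested on few samples. It was lost without either cKO apical sample, either cKO basal sample or either control apical sample, with adjusted p from 0.0523 to 0.110 and differences from -2.13 to -1.89. Without control base replicate 1, whose stria markers were low, the adjusted p was 0.00297, without control base replicate 2 it was 0.00456, and without both samples of control mouse 1 it was 0.00341. Gfi1 is also made in neutrophil precursors, so 11 marker genes of those cells (Elane, Mpo, Ngp and others) were read beside it. Their summed signal was 8385 to 8998.5 in cKO base and 4642 to 5059 in cKO apex, against 2657 to 4598 in control base and 3302 to 5227 in control apex. In base minus apex over both genotypes 10 of the 11 were higher in the base and 0 passed the test. Within cKO mice 11 of 11 were higher in the base, and within control mice 3 were higher and 8 lower, with medians of 0.71 and -0.33. The part of these cells in the Gfi1 signal was not tested.

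Lhx3, the LIM-homeodomain factor, read 9.92 and 62.3 in cKO base and 129 and 107 in cKO apex, against 57.6 and 55.4 in control base and 104 and 84.6 in control apex. Every basal sample was below every apical sample, and cKO base replicate 1 was far below the other 3 basal samples. Base minus apex was -1.48 ± 0.54 over both genotypes (adjusted p = 0.226, limma), and -0.82 without that sample. With its value raised to the filter signal, Lhx3 was at least 1.99-fold lower in the base (adjusted p = 0.0815). The second Lhx3 probe set had signals from 1.55 to 26.0, under the filter in all 8 samples.

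Barhl1, the homeodomain survival factor, was under the filter in all 8 samples on both of its probe sets. The brighter one read 3.27 and 7.23 in cKO base and 35.7 and 24.8 in cKO apex, against 4.78 and 18.5 in control base and 5.92 and 32.9 in control apex. The cKO basal samples were below the cKO apical samples, and control apex replicate 1 was low like the basal samples. That sample was also the low apical one for Pou4f3, while its Gfi1 and Ikzf2 signals of 456 and 1779.6 lay above every basal sample. In a fit with no filter, base minus apex for Barhl1 was -1.59 ± 0.74 over both genotypes (adjusted p = 0.385, limma). The second probe set gave -1.27 ± 0.85, and it was not lower in control base, where replicate 2 read 38.6 against 13.3 in control apex replicate 2.

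Ikzf2, the helios gene of outer hair cells, read 741 and 965 in cKO base and 1999.7 and 1585.5 in cKO apex, against 841 and 839 in control base and 1779.6 and 1373 in control apex. Every basal sample was below every apical sample, and the cKO and control samples of a region overlapped. Group means were highest in cKO apex (1793 ± 293, SD, n = 2), then control apex (1576 ± 288), cKO base (853 ± 159) and control base (839.6 ± 1.35), and neither the apical nor the basal pair differed past the threshold. Base minus apex over both genotypes was -0.99 ± 0.15 on the log2 scale, 1.98-fold lower (adjusted p = 0.0371, limma). The basal signal was 2.70-fold and 1.64-fold below the apical one in the cKO mice, and 2.12-fold and 1.64-fold below it in the control mice.

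As for Gfi1, the Ikzf2 call was lost without any 1 of the 4 cKO samples or either control apical sample, with adjusted p from 0.109 to 0.178. Without control base replicate 1 it was 0.0134, without control base replicate 2 it was 0.0293 and without control mouse 1 it was 0.0276. A second probe set of Ikzf2 read 77.4 and 86.6 in cKO base and 168 and 197 in cKO apex, against 62.7 and 140.2 in control base and 76.1 and 325 in control apex. Its cKO groups were apart and its control groups overlapped, and base minus apex was -0.95 ± 0.47, close in size but not past the threshold (adjusted p = 0.445, limma on every probe set). The third probe set had signals from 0.967 to 13.3, all under the filter, and a difference of the other sign, 0.92 ± 0.66. T cells also make Ikzf2, and the summed signal of 5 T cell markers, Cd3e and Cd4 among them, was 52.0 to 86.8 in base and 36.9 to 59.9 in apex. None of these markers passed the filter on its mean, so their sum cannot show whether T cells differed between the regions. The part of T cells in the Ikzf2 signal was not tested.

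Set side by side, the factors differed between base and apex in the same direction in most mice. Basal samples lay below all apical samples without overlap for 3 of the 6 factors (Gfi1, Lhx3 and Ikzf2), against 6.4% of all tested genes. The base was the lower region in every presumed mouse for Pou4f3, Gfi1, Lhx3 and Ikzf2, against 17% of all tested genes. The brighter Barhl1 probe set, which was not tested, ran the same way, and its second probe set did not. Over all 13221 genes the median base minus apex difference was -0.02, and 22 genes had a lower value than Gfi1 and 272 than Ikzf2. Within cKO mice 11 genes passed the test, 0.0832% of those tested, and within control mice 0 did, with 7.52% at an unadjusted p under 0.05. No factor was among the 11. When only the cKO samples entered the fit, the count of genes past the threshold was 449, and Pou4f3, Gfi1 and Ikzf2 were among them with adjusted p of 0.00687, 0.0048 and 0.0354. That fit takes its spread from 4 arrays.

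**Figure D2:**
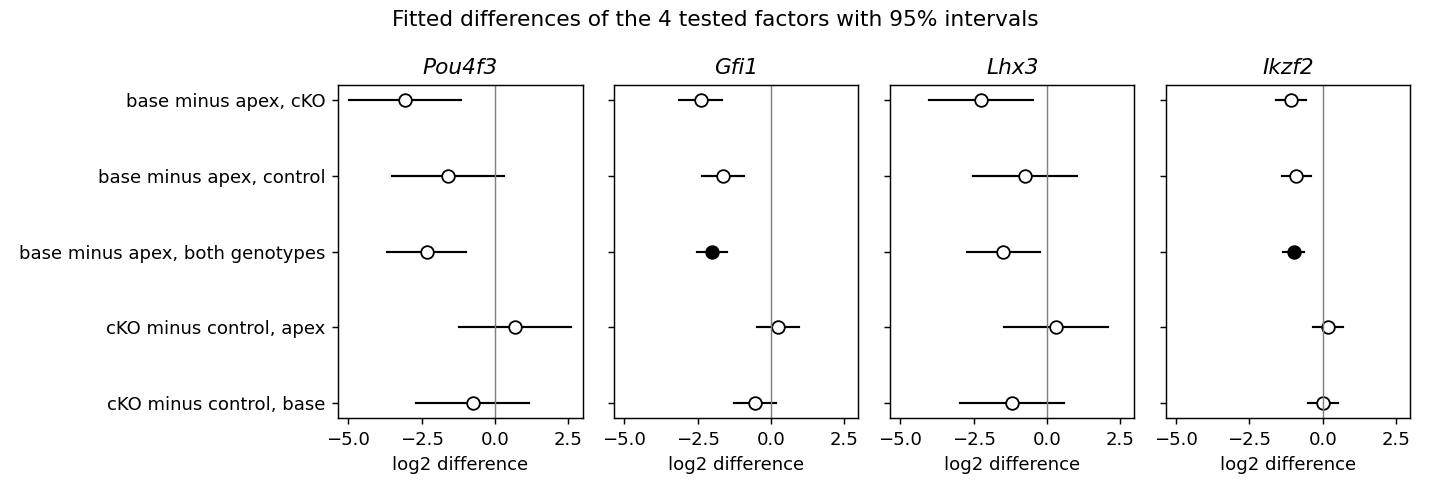
Fitted log2 differences of the 4 factors that passed the filter, in 5 comparisons of the 8 arrays. Points are estimates, bars 95% intervals from the limma fit, and filled points mark an adjusted p under 0.05. The filled points are the base minus apex differences of Gfi1 (-2.01) and Ikzf2 (-0.99) over both genotypes; the cKO minus control intervals include 0 for all 4 genes in both regions.

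Comparing cKO with control mice asks what the Dicer1 deletion in hair cells did to these factors, and none of them differed past the threshold. In the apex, cKO minus control was 0.23 ± 0.31 for Gfi1, 0.19 ± 0.22 for Ikzf2, 0.32 ± 0.76 for Lhx3 and 0.70 ± 0.82 for Pou4f3 (log2, SE; adjusted p 1.00 for each, limma). In the base it was -0.55 ± 0.31 for Gfi1, 0.01 ± 0.22 for Ikzf2, -1.18 ± 0.76 for Lhx3 and -0.76 ± 0.82 for Pou4f3 (adjusted p 1.00 for each). No gene of the 13221 passed the test between genotypes in either region, and 2.19% in the apex and 3.12% in the base had an unadjusted p under 0.05. None of the 4 tested factors was among those, and the smallest unadjusted p of the 4 in the base was 0.116, for Gfi1.

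The intervals show how much these 2 against 2 comparisons could have missed. For Ikzf2 the 95% interval of cKO minus control was -0.32 to 0.70 in the apex and -0.50 to 0.52 in the base. For Gfi1 it was -0.49 to 0.95 in the apex and -1.27 to 0.17 in the base, where both cKO samples were below both control samples, as was so for 15.6% of tested genes. The unlike control basal samples set the size of that Gfi1 value, which was -0.92 without replicate 1 and -0.17 without replicate 2. The basal value of Pou4f3 was -1.30 and -0.22 in the same fits. Lhx3 in the apex was the other factor without overlap, with both cKO samples above both control samples, as in 15% of tested genes. For Pou4f3 and Lhx3 the intervals were wider, from -1.22 to 2.61 and from -1.45 to 2.10 in the apex. For both of these genes 1 sample set the sign of a value. Without control apex replicate 1, Pou4f3 was at -0.65 in the apex, and without cKO base replicate 1, Lhx3 was at 0.14 in the base. Atoh1 and Barhl1, from the fit with no filter, were at -0.71 ± 0.76 and 1.09 ± 1.04 in the apex and at -0.34 ± 0.76 and -0.95 ± 1.04 in the base.

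Whether the genotype difference itself depended on region was tested with an interaction term. The cKO minus control difference in the base less that in the apex was -0.78 ± 0.44 for Gfi1, -0.18 ± 0.31 for Ikzf2, -1.51 ± 1.07 for Lhx3 and -1.46 ± 1.16 for Pou4f3, with an adjusted p of 1.00 for each (limma). No gene of the 13221 passed this test, and 1.13% had an unadjusted p under 0.05, none of the 4 factors among them. All 4 estimates were below 0, which holds for 50.5% of tested genes singly, and each interval included 0. With 1 mean per presumed mouse, cKO minus control over both regions was -0.16 ± 0.25 for Gfi1, 0.10 ± 0.14 for Ikzf2, -0.43 ± 0.46 for Lhx3 and -0.03 ± 0.65 for Pou4f3 (adjusted p = 0.999 for each). No gene passed that test, 2.41% had an unadjusted p under 0.05, and again none of the 4 factors did.

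Other hair cell genes were read beside the factors, 30 of them listed and 21 tested. The factors and this list were chosen with earlier results of these data known, so counts over either carry that choice. All 21 were lower in the base over both genotypes, with a median of -0.97, and 7 passed the test. These were Chrna9 (-3.23 ± 0.46), the nicotinic receptor subunit of efferent input, Strc (-2.96 ± 0.37), which encodes stereocilin, and the calcium buffer gene Calb1 (-2.84 ± 0.40). Acbd7 (-2.11 ± 0.18), Smpx (-1.79 ± 0.17), the stereocilia actin bundler Fscn2 (-1.55 ± 0.26) and Pcp4 (-1.14 ± 0.13) were the others. Of the 21 hair cell genes 4 had a lower value than Gfi1 and 10 a lower value than Ikzf2. Pou4f3 and Lhx3 were not ranked among them, since basal signals under the filter enter their values, for Lhx3 in cKO base replicate 1 alone. The same limit holds for some hair cell genes in the ranking. In cKO base, replicates 1 and 2, Chrna9 read 9.75 and 31.5 and Fscn2 33.8 and 21.6. Chrna9 read 17.9 in control base replicate 1, and Strc 18.6 in cKO base replicate 1. The sizes of these genes, and the places of Gfi1 and Ikzf2 beside them, carry that limit. No call in this comparison, those of the factors included, was kept without cKO apex replicate 1, cKO apex replicate 2 or cKO base replicate 1 (0 genes past the test). Without cKO base replicate 2, control apex replicate 2 or control apex replicate 1 the genes past it numbered 5, 9 and 25. In cKO mice alone Acbd7 (-2.55), Smpx (-2.24) and Pcp4 (-1.76) passed the test, with 19 of the 21 below 0, and every call there was lost without any 1 of the cKO samples or with the presumed mouse as a block. Between genotypes in the base 15 of 21 were lower in cKO and 6 higher, with a median of -0.69 and 0 past the test. The highest was Calb1 (1.37 ± 0.57). The 4 of smallest p there were Pcp4 (-1.11 ± 0.18), Acbd7 (-1.39 ± 0.25), Cabp2 (-1.49 ± 0.30) and Smpx (-1.01 ± 0.24), each with an adjusted p of 1.00. Their unadjusted p ran from 0.000397 to 0.00308 (limma), where 3.12% of all tested genes were under 0.05. In the apex 13 of 21 were higher in cKO, with a median of 0.11.

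**Figure D3:**
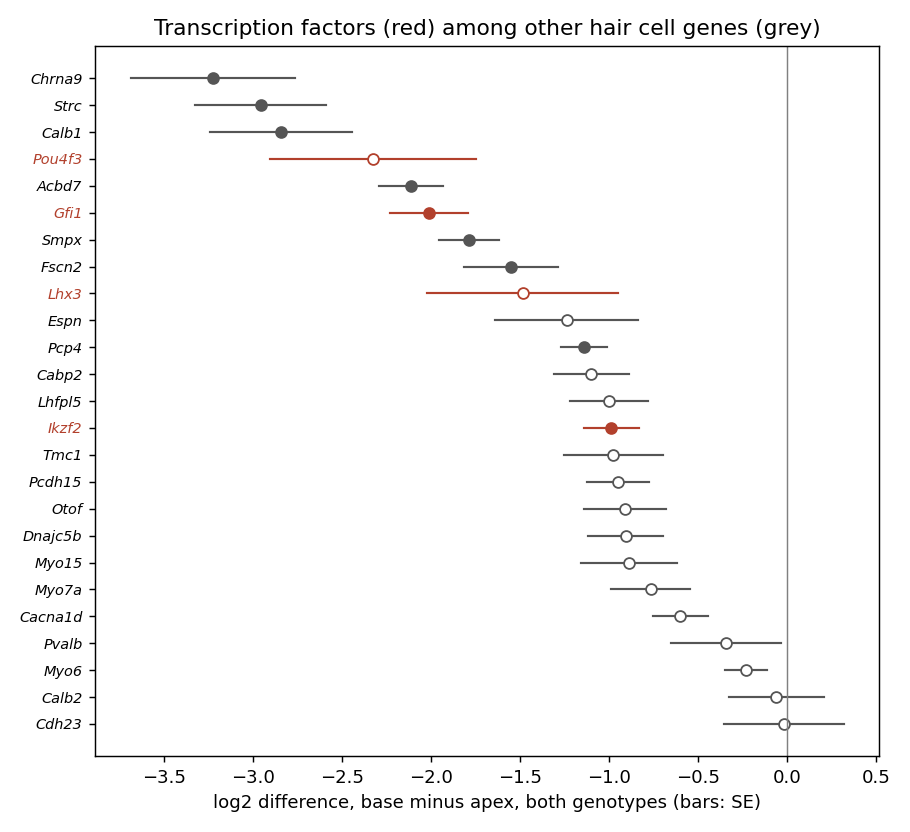
Base minus apex log2 differences over both genotypes for the 4 tested factors (red) and 21 other hair cell genes (grey), with standard errors; filled points mark an adjusted p under 0.05. Ikzf2 at -0.99 sits near the median of the hair cell genes (-0.97), and Gfi1 is at -2.01. The places of Pou4f3 (-2.32) and Lhx3 (-1.48) include basal signals under the filter. So do those of some hair cell genes, Chrna9, Strc and Fscn2 among them.

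Each factor was then set against the mean log2 signal of the 21 hair cell genes on the same array, which was 7.79 ± 0.33 in base and 9.01 ± 0.11 in apex (SD, n = 4), a difference of -1.22. Relative to that mean, Gfi1 was at -0.64 and -0.72 in cKO base and 0.34 and 0.02 in cKO apex, against -1.13 and -0.25 in control base and -0.04 and 0.11 in control apex. All 4 basal values were below all 4 apical values, and base minus apex was -0.79. Relative Ikzf2 was at 2.06 and 2.35 in cKO base and 1.84 and 1.66 in cKO apex, against 1.58 and 1.71 in control base and 1.92 and 1.36 in control apex. These values overlapped between regions, with the base higher in 3 of 4 mice and a difference of 0.23. For Pou4f3 the relative difference was -1.11, with the base lower in each mouse and overlapping groups. In control mouse 1 its values were close, at -3.07 in base and -3.02 in apex. For Lhx3 the difference was -0.27, with mixed signs among mice. Its relative value in cKO base replicate 1 was -4.16, against -2.29 to -1.60 in the other basal samples and -2.66 to -2.12 in apex. Basal signals under the filter enter the values of Pou4f3 and Lhx3, and those of some hair cell genes in the mean. These relative values are descriptions over 8 arrays and carry no test.

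**Figure D4:**
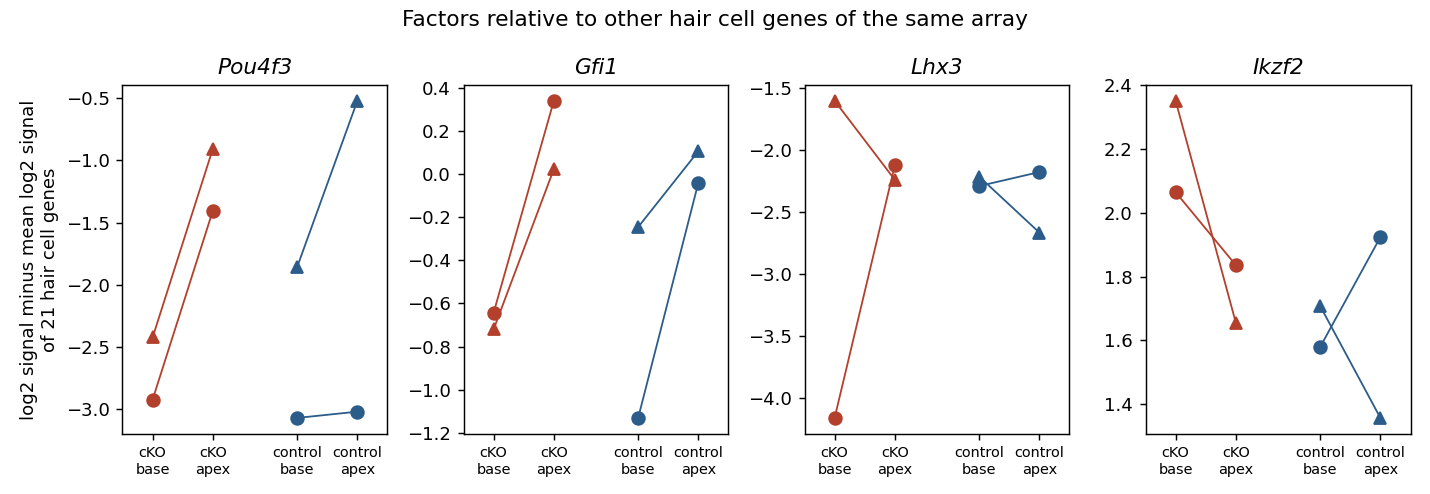
Log2 signal of each tested factor minus the mean log2 signal of 21 hair cell genes on the same array. Lines join the base and apex of a presumed mouse (circles mouse 1, triangles mouse 2, red cKO, blue control), and each panel has its own range. Gfi1 lies lower in the base in all 4 mice, from -1.13 to -0.25 against -0.04 to 0.34 in the apex, while Ikzf2 overlaps between the regions. Basal signals under the filter enter the panels of Pou4f3 and Lhx3, for Lhx3 in cKO base replicate 1 alone.

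Genes reported to lie downstream of the factors in mouse hair cells did not all differ one way. Of 14 listed, 11 were tested; in base minus apex over both genotypes 5 were higher, 6 were lower, the median was -0.52 and 2 passed the test, both lower. Rbm24, an RNA-binding protein gene, read 145 and 154 in cKO base and 677 and 522 in cKO apex, against 249 and 201 in control base and 516 and 488 in control apex. Every basal sample was below every apical sample (-1.58 ± 0.16, adjusted p = 0.0149, limma), and within cKO mice alone Rbm24 also passed (-1.99 ± 0.22, adjusted p = 0.0461), with the same dependence on single samples. Ppp1r17, a phosphatase regulator gene reported to depend on Ikzf2 in outer hair cells, was lower by 8-fold (-3.0 ± 0.43 on the log2 scale, adjusted p = 0.0300). It read 139 and 282 in cKO base and 2902 and 2336 in cKO apex, against 254 and 1009 in control base and 2105 and 2891 in control apex. Control base replicate 2 was the highest basal sample for this gene and still below every apical sample.

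Slc26a5 encodes prestin, the motor protein of outer hair cells, and its levels are reported to respond to Ikzf2. Its probe set was under the filter and not tested, with 3.32 and 2.65 in cKO base and 35.4 and 33.1 in cKO apex, against 18.9 and 4.17 in control base and 32.9 and 39.6 in control apex. The basal samples were below the apical samples, and 1 of the 8 reached the filter signal. Among early Atoh1-linked genes, Hes6 was at 0.73 ± 0.28 and Jag2 at 0.45 ± 0.19 in base minus apex, neither past the threshold (adjusted p = 0.240 and 0.277, limma). The rest of the tested downstream genes did not pass either. Lower were Neurod1 (-1.68 ± 0.50), Car7 (-1.25 ± 0.22, adjusted p = 0.0530, limma), Nr2f2 (-0.52 ± 0.15) and Bdnf (-0.52 ± 0.22). Higher were Dll1 (0.35 ± 0.32), Anxa4 (0.34 ± 0.17) and Caprin1 (0.06 ± 0.15). Between genotypes 0 of the 11 passed the test in either region, and 7 were higher in the cKO apex and 6 in the cKO base, with medians of 0.06 and 0.00.

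Of 20 other regulators of the inner ear, 17 were tested, and 5 were higher and 12 lower in the base, with a median of -0.19. Sox2, the factor of the prosensory domain that supporting cells keep, was the 1 past the test (-1.37 ± 0.16, adjusted p = 0.0197). Nr2f1, a nuclear receptor gene, came next at -0.96 ± 0.18 (adjusted p = 0.0551). Of 10 close paralogs of the factors 5 were tested and 0 passed the test in any comparison. Atoh7 was at -1.21 ± 0.42 in base minus apex (adjusted p = 0.207), and the Ikzf2 relatives Ikzf5, Ikzf4 and Ikzf1 were at -0.28 ± 0.15, -0.20 ± 0.23 and 0.10 ± 0.27.

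Markers of other cochlear cells also differed between the regions. Supporting cell markers had a summed signal of 34479 to 43337 in base and 44274 to 51727 in apex, without overlap. That lack of overlap rests on Tectb, which read 52.5 to 418 in base and 5868 to 11411 in apex. Of 10 tested, 6 were lower and 4 higher in the base. Gjb2 read 11935 to 18930 in base and 11856 to 15522 in apex. The 3 called were all lower: Sox2, Jag1 (-1.19 ± 0.13), a Notch ligand gene, and Tectb (-6.00 ± 0.62), which encodes a tectorial membrane protein. Stria vascularis markers summed to 21126 to 56634 in base and 22370 to 27901 in apex, and 8 of 9 tested were higher in the base with 0 called. Spiral ganglion neuron markers summed to 19825 to 59244 in base and 42827 to 52789 in apex, and 9 of 9 tested were lower in the base with a median of -0.34 and 0 called. The myelin markers were lower in the base in 3 of 3 tested and the fibrocyte markers higher in 4 of 5, with 0 called. The part of these other cells in the values of the factors was not tested. Hair cell genes themselves summed to 21518 to 38377 in base and 36644 to 39347 in apex, and these ranges overlapped. Calb2 and Pvalb were the brightest in that sum, at 6446.5 to 15659 and 4489 to 11907 in base. The mean log2 signal of the 21 tested hair cell genes did not overlap between regions. It was 7.47 to 8.14 in base and 8.87 to 9.13 in apex.

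The genes whose log2 signals followed each factor most closely over the 8 arrays were named by Pearson's r, as a description in which arrays share mice and regions. For Gfi1 these were Atp11a (0.994), Muc15 (0.987) and B930095G15Rik (0.986), and for Ikzf2 Rexo5 (0.991), Zfp36l1 (0.988) and Amot (0.987). Pou4f3 was followed by Rab19 (0.978), Lad1 (0.975) and Sfrp1 (0.975), and Lhx3 by Gm38604 (0.989), Zfp937 (0.984) and Nfatc2 (0.966). For Barhl1 they were Crabp2 (0.980), Zdhhc16 (0.974) and Snrpg (0.967), and for Atoh1 Boll (0.943), Prl2a1 (0.941) and Pigg (0.935). An r of 0.9 or more was reached by 185 genes for Gfi1, 153 for Ikzf2, 121 for Pou4f3, 84 for Barhl1, 30 for Lhx3 and 12 for Atoh1. Of the 21 hair cell genes Chrna9 was the closest to Gfi1 (0.965), Ikzf2 (0.918), Pou4f3 (0.899) and Barhl1 (0.812). Among the factors themselves the closest pairs were Pou4f3 with Barhl1 (0.931) and Gfi1 with Ikzf2 (0.913), and Atoh1 reached at most 0.380, with Gfi1. Barhl1 reached the filter signal in 0 of the 8 samples, Atoh1 in 3 and Pou4f3 in 5. Values of r for these factors therefore rest in part or whole on signals under the filter. Those of Lhx3 include cKO base replicate 1, at 9.92.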

How the data were processed

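The deposited values are linear MAS5 intensities, 1 for each probe set, that the authors scaled to a trimmed mean of 500 (2% off each end), as the values show. The submitters' processing notes name MAS5 and affy 1.26, without role or order. Per the labels' protocols, 2 rounds of amplification preceded biotin labelling. No scan batch, array design name or detection call was given in the sources used here. The supplied annotation lists 1 gene for 34945 of 45101 probe sets (34741 matched by Entrez identifier), several for 932 and none for 9160. A gene was read from its probe set of highest mean log2 value, after log2 with no pseudocount. The filter left 13221 of 18193 genes. limma 3.58.1 on R 4.3.3, with an intensity trend, was fitted to 4 group means (4 residual degrees of freedom, 3.46 from the prior) and tested on simulated data. Standard errors and intervals come from that fit. The number of arrays limits the precision, and p-values measure the spread between these samples, 2 from each presumed mouse. Base minus apex values within cKO, within control and over both share samples, as do the genotype comparisons. The factors and gene lists were chosen with earlier results of these data known. Named were the 6 factors, the 3 most like genes of each, and from each list the members past the threshold or up to 4 of smallest p. Rbm24, Ppp1r17, Slc26a5, Hes6, Jag2, Nr2f1 and single paralogs were described for their roles, some after their values were seen. The remaining tested downstream genes were given to complete that list. Gjb2, Calb2 and Pvalb were named for their bright signals, after these were seen. Deviations from the group mean of same-numbered base and apex samples correlated at r = 0.339 in control and 0.0683 in cKO mice. Same-numbered cKO and control samples, which are different mice, gave -0.0312 in apex and 0.177 in base. The cKO value lies between these, so it cannot show whether the cKO samples are paired by number. Alternatives were no filter, a pseudocount of 16, quantile normalization, 75th percentile centring, every probe set, a replicate block, the compared groups alone, leaving out each sample in turn, and raising low values to the filter.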

Additional observations from a re-analysis of the deposited data

How the results depend on the processing

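Of the differences of the 4 tested factors recomputed under other settings, 389 kept their direction and their side of the threshold, 12 lost the threshold, 8 gained it and 19 turned sign. Of the counts of genes or factors past the threshold, 180 stayed within 1.5 times and 34 did not. Base minus apex for Gfi1 stayed past the threshold in 9 of 9 settings that left out no single sample, from -2.01 to -1.89, as did Ikzf2, from -0.99 to -0.89, while leaving out 1 sample kept each in 2 of 8. With the replicate block on the presumed mouse, the genes past the threshold in base minus apex over both genotypes numbered 255 in place of 157 and those in cKO mice 0 in place of 11, and Pou4f3 passed (adjusted p = 0.0341); the block changed no other call of the factors. The count in cKO mice was also 0 with no filter, quantile normalization, or every probe set with and without the filter, 449 with only the groups compared and 449 without control mouse 1, and factors past it were 3 in the last pair. Without control mouse 1, a setting chosen after seeing the data like every probe set with no filter, 1049 genes passed over both genotypes and 157 in control mice. Leaving out 1 sample gave 0 to 1518 genes and 0 to 2 factors over both genotypes, 0 to 0 genes in cKO mice, 0 to 551 in control mice, 0 to 37 for cKO minus control in base and 0 to 9 over both regions. Some signs of cKO minus control turned. In the apex Pou4f3 was at -0.65 to 2.04 and Gfi1 at -0.0046 to 0.47 without 1 sample, and Pou4f3 at -0.65 without control mouse 1. In the base, without 1 sample, Lhx3 was at -2.51 to 0.14 and Ikzf2 at -0.18 to 0.20. Over both regions Pou4f3 was at 0.0196 with the pseudocount, 0.0474 with quantile normalization and 0.13 with low values raised, and Lhx3 at 0.0608 with low values raised. Without 1 sample, Pou4f3 was at -0.98 to 0.91, Gfi1 at -0.43 to 0.11 and Lhx3 at -1.03 to 0.16 over both regions, and the difference of genotype effects for Ikzf2 at -0.37 to 0.0131. The cause of these shifts was not tested. Signals under the filter limit Atoh1, Barhl1 and the basal values of Pou4f3.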
